A study of Mus musculus with 6 samples.

Results

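The Wnt ligands, receptors and antagonists described here are 64 genes of the 41128 features listed for each library. They were chosen by name: every Wnt, Fzd, Sfrp, Dkk, Rspo and Nkd gene and Porcn, together with 19 further genes that carry or read the signal, among them Wls, Wif1, Lrp5, Lrp6, Ror1, Ror2, Ryk, Axin2 and the TCF/LEF factors. RNA sequencing of mouse lenses at embryonic stage E13.5 compared 3 Prox1 conditional knockout (Prox1 cKO) libraries with 3 wild type libraries. Knockout embryos carried floxed alleles of Prox1 on both chromosomes and the MLR10-Cre transgene (Prox1 f/f MLR10Cre+), whose promoter drives Cre recombinase in lens cells. Both groups are labelled C57Bl/6, and each library pooled 30 lenses. The controls are labelled wild type, with neither floxed alleles nor Cre named, so loss of Prox1, the Cre transgene and any strain background left around the floxed alleles cannot be told apart. Prox1 encodes a homeodomain transcription factor that lens fibre cells need in order to elongate.

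Wnt proteins are secreted, lipid-modified ligands. They bind Frizzled receptors on the cell surface, and with the coreceptors Lrp5 and Lrp6 they stabilise β-catenin, which then acts with TCF/LEF factors on target genes. With Ror receptors or Ryk they act instead on cell shape, polarity and calcium, without β-catenin. R-spondins raise the number of Frizzled receptors at the membrane, and Sfrp, Dkk and Wif1 proteins act outside the cell, mostly to restrain the signal. In the mouse eye, β-catenin signalling in surface ectoderm works against lens fate, the lens epithelium depends on Lrp6, and the polarity branch is tied to the alignment of fibre cells.

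Libraries held between 9082219 and 28391662 counts in the Prox1 cKO and between 20731491 and 21061582 counts in the wild type. The 64 genes took 0.605% to 0.651% of the counts in Prox1 cKO libraries and 0.520% to 0.536% in wild type libraries. Levels below are CPM, counts scaled to the library total, adjusted by TMM, a factor that corrects each library for its make-up, and values listed for a group are libraries 1, 2 and 3 in that order. Prox1 itself had 651, 728 and 707 CPM in Prox1 cKO libraries, against 922, 1215 and 1246 CPM in wild type libraries. The groups did not overlap, and the log2 change was -0.70 (SE 0.141, edgeR adjusted p = 0.0074). These counts cover all exons of Prox1, including any that Cre leaves in place, and the sources used here do not say which exon was floxed. Nothing in the labels says whether litters were shared between pools, so the spread that a p-value measures is that between pools.

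The libraries also differed in markers of cell types, and some libraries stood apart from their group. Crystallins took 2.83% to 3.14% of the counts in Prox1 cKO libraries and 13.2% to 22.7% in wild type libraries, with wild type library 1 at the low end. The 8 lens fibre markers measured were all lower in the Prox1 cKO, with summed levels of 18913 to 21713 CPM there and 95184 to 181357 CPM in the wild type. Lens epithelium markers summed to 2423 to 2608 CPM in the Prox1 cKO and 1688 to 1833 CPM in the wild type, and 4 of 7 were higher and 1 lower. Markers of tissue around the lens were higher as well. All 6 tested pigment cell markers passed, with sums of 248 to 701 CPM in the Prox1 cKO and 52.2 to 164 CPM in the wild type. All 6 tested surface ectoderm markers passed, with 39.1 to 133 CPM in the Prox1 cKO and 9.45 to 28.8 CPM in the wild type. Of these 6, Krt14, Trp63 and Krt8 reached the level needed for testing in every Prox1 cKO library but not in every wild type library. The wild type libraries alone would not have brought them into the test. Krt14 reached the level in no wild type library, so it could enter only as higher. Of 9 tested periocular mesenchyme markers 4 passed, with 581 to 2614 CPM in the Prox1 cKO and 229 to 465 CPM in the wild type. The mesenchyme marker Foxc2 had no count in any library. In each of these last 3 lists Prox1 cKO library 3 was the highest of its group and wild type library 2 the lowest of its group. Of neural retina markers 2 of 8 were higher, with 352 to 552 CPM in the Prox1 cKO and 230 to 355 CPM in the wild type. Of neuron markers 1 of 7 was lower (93.3 to 111 CPM in the Prox1 cKO, 85.8 to 142 CPM in the wild type), and 3 of 8 erythroid markers were higher (1402 to 2237 CPM in the Prox1 cKO, 777 to 2590.5 CPM in the wild type). No marker of blood vessel endothelium or of macrophages passed the test, and both sums overlapped between the groups. Their means were still higher in the Prox1 cKO, 1.38-fold for endothelium and 1.51-fold for macrophages. Log2 changes of the 8 macrophage markers ran from 0.34 to 0.72. In pools of whole lenses, fewer cells of a type and less RNA per cell cannot be told apart.

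Across the Wnt genes, many receptor genes and both secretion genes rose in the Prox1 cKO, the abundant lens ligands and the R-spondin gene Rspo1 fell, and the antagonists moved both ways. Enough reads were present to test 51 of the 64 genes, and 28 of these passed an adjusted p of 0.05 in the edgeR quasi-likelihood test, 21 higher and 7 lower in the Prox1 cKO. Over all 14271 features tested, 32.6% passed, 15.9% as higher and 16.8% as lower. Of the tested Wnt genes 54.9% passed, 41.2% as higher and 13.7% as lower, and their median log2 change was 0.50 where that of all tested features was 0.04. Libraries of the groups did not overlap in 33 of the 51, against 50.1% of all tested features. Rnf43, Wnt2, Wnt6, Wnt9b and Wnt11 reached the level needed for testing in every Prox1 cKO library but not in every wild type library. The wild type libraries alone would not have brought these 5 into the test. Wnt11 reached the level in no wild type library, so it could enter the test only as higher. The count of passing genes depended on single libraries: it was 15, with 9 higher and 6 lower, without wild type library 2, 16, with 10 higher and 6 lower, without wild type library 3, and 20, with 13 higher and 7 lower, without Prox1 cKO library 3. Of all features, 2267 passed without wild type library 2 and 2475 without wild type library 3, against 4659 with all libraries.

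**Figure D1:**
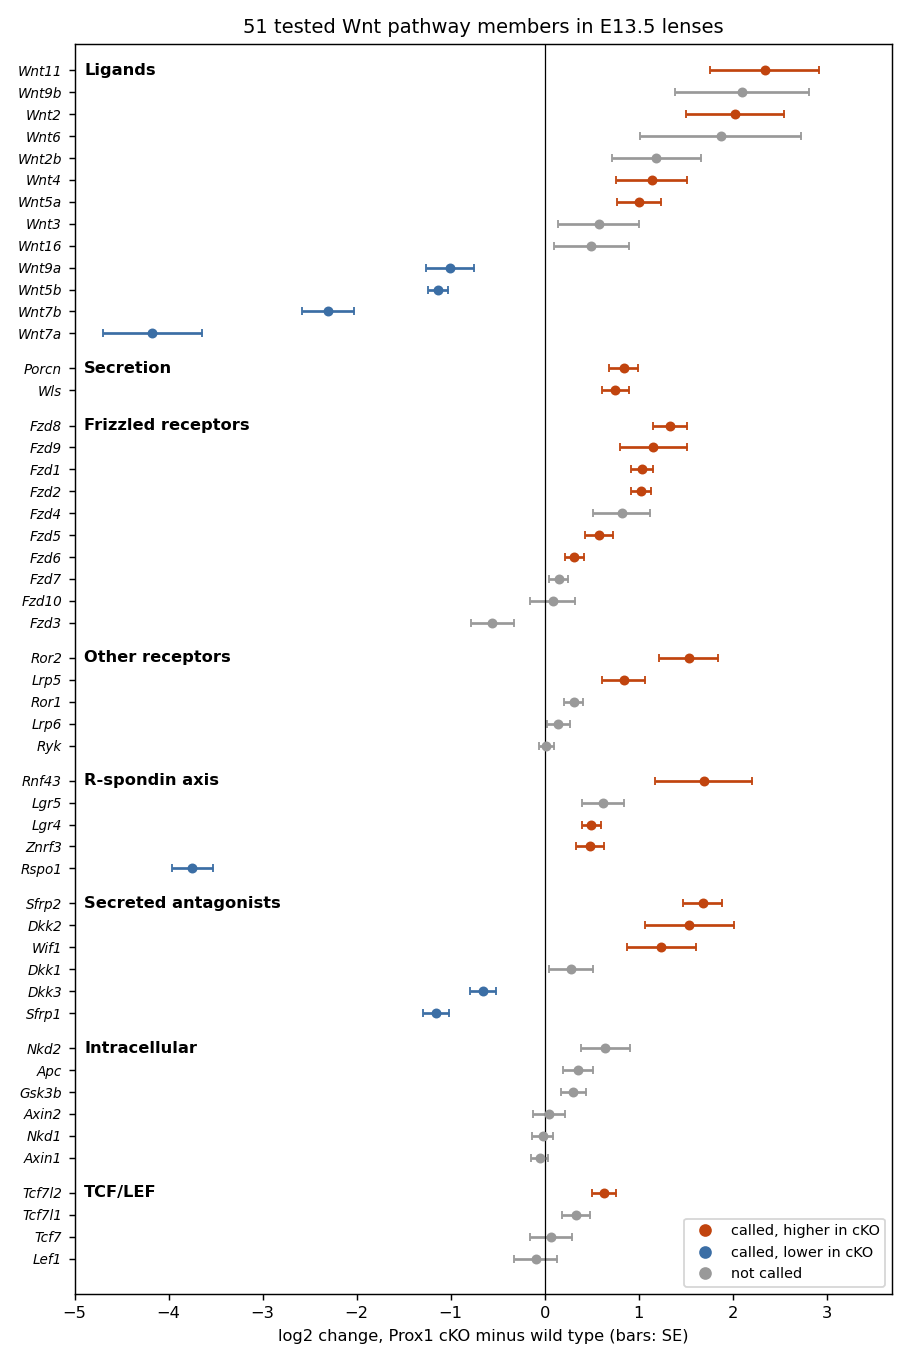
Log2 change in level, Prox1 cKO minus wild type, of the 51 tested Wnt genes, grouped by role (points: edgeR estimate; bars: SE; colours: passing as higher, passing as lower, not passing an adjusted p of 0.05). Wnt7a at -4.18, Rspo1 at -3.75 and Wnt7b at -2.31 lie farthest below 0, while no Frizzled gene that passed lies below it.

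The genes with the steepest falls were Wnt7a (ENSMUSG00000030093, chromosome 6, 91363981 to 91411363, minus strand) and Rspo1 (ENSMUSG00000028871, chromosome 4, 124986430 to 125009099, plus strand), and Sfrp2 (ENSMUSG00000027996, chromosome 3, 83766321 to 83774316, plus strand) was the most abundant gene that rose, with coordinates from the GENCODE annotation of GRCm38. With Fzd1 (ENSMUSG00000044674, chromosome 5, 4753839 to 4758035, minus strand), the most abundant Frizzled gene per kilobase in the Prox1 cKO, they are shown here by the 250 bases before their start in RefSeq (build GRCm38.p6), read 5′ to 3′ on the strand of the gene. Capitals mark the core of the TCF/LEF site (CTTTGA, or TCAAAG on the other strand) and the TATA box letters (TATAAA, or TTTATA on the other strand).
Rspo1, chr4:124986180-124986429, plus strand: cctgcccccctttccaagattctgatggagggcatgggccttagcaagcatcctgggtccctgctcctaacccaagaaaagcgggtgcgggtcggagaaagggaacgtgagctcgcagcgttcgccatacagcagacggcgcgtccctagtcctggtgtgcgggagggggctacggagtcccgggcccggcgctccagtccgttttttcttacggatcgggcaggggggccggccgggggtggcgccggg
Wnt7a, chr6:91411354-91411603, minus strand: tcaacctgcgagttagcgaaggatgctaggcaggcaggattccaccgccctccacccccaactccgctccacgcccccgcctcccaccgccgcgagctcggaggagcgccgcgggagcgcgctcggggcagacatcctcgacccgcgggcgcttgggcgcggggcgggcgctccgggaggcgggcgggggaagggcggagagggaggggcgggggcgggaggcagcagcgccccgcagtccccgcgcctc
Sfrp2, chr3:83766071-83766320, plus strand: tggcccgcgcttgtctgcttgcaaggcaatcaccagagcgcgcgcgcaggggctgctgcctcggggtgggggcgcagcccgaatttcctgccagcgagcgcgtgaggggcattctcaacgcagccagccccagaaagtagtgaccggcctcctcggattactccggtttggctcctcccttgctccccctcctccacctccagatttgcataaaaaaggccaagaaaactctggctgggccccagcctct
Fzd1, chr5:4758217-4758466, minus strand: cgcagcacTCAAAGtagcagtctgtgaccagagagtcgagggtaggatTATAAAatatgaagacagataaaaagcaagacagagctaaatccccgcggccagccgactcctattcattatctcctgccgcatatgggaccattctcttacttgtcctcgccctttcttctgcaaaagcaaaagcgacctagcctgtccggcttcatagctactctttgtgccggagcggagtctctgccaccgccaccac
Of the 4, Fzd1 alone held either motif: TCAAAG began 242 bases and TATAAA 202 bases before its RefSeq start. That start lies upstream of the GENCODE start of Fzd1 at 4758035, so both motifs are farther from the GENCODE start. The RefSeq and GENCODE starts of Wnt7a differ as well. The stretches before Rspo1, Wnt7a and Sfrp2 had 66.8%, 77.6% and 63.6% G and C and that before Fzd1 had 51.2%, where the median over all windows was 52.4%. RefSeq windows of 300 bases, which run 50 bases past the start, were found for 43 of the 64 genes, 52 windows in all since some genes have several. CTTTGA or its reverse was in 7 of the 52 (13.46%) and in 16.0% of all 32851 windows, and TATAAA or its reverse was in 10 of 52 (19.2%) and in 13.6% of all.

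Among the 19 ligand genes, the 4 that fell included the 3 that made up most of the wild type pool. Wnt7b had 43.4, 50.01 and 64.8 CPM in Prox1 cKO libraries, against 154, 303 and 322 CPM in wild type libraries. That is 4.94-fold lower (log2 -2.31, SE 0.279, edgeR adjusted p = 0.000712). Its close relative Wnt7a had 2.41, 4.59 and 4.14 CPM in Prox1 cKO libraries, against 23.2, 76.1 and 90.6 CPM in wild type libraries, which is 18.1-fold lower (log2 -4.18, SE 0.527, edgeR adjusted p = 0.00088). In both genes every Prox1 cKO library was below every wild type library, and wild type library 1, the one with the fewest crystallin counts, was the lowest of its group. Wnt5b, which acts mainly without β-catenin, had 29.5, 34.1 and 31.4 CPM in Prox1 cKO libraries, against 61.4, 74.6 and 72.3 CPM in wild type libraries, a fall of 1.13 (SE 0.110, edgeR adjusted p = 0.000264). Wnt9a, a β-catenin ligand known from joint formation, was low throughout, with 2.18, 2.50 and 3.93 CPM in Prox1 cKO libraries, against 5.17, 5.55 and 6.10 CPM in wild type libraries (log2 -1.01, SE 0.255, edgeR adjusted p = 0.0189).

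**Figure D2:**
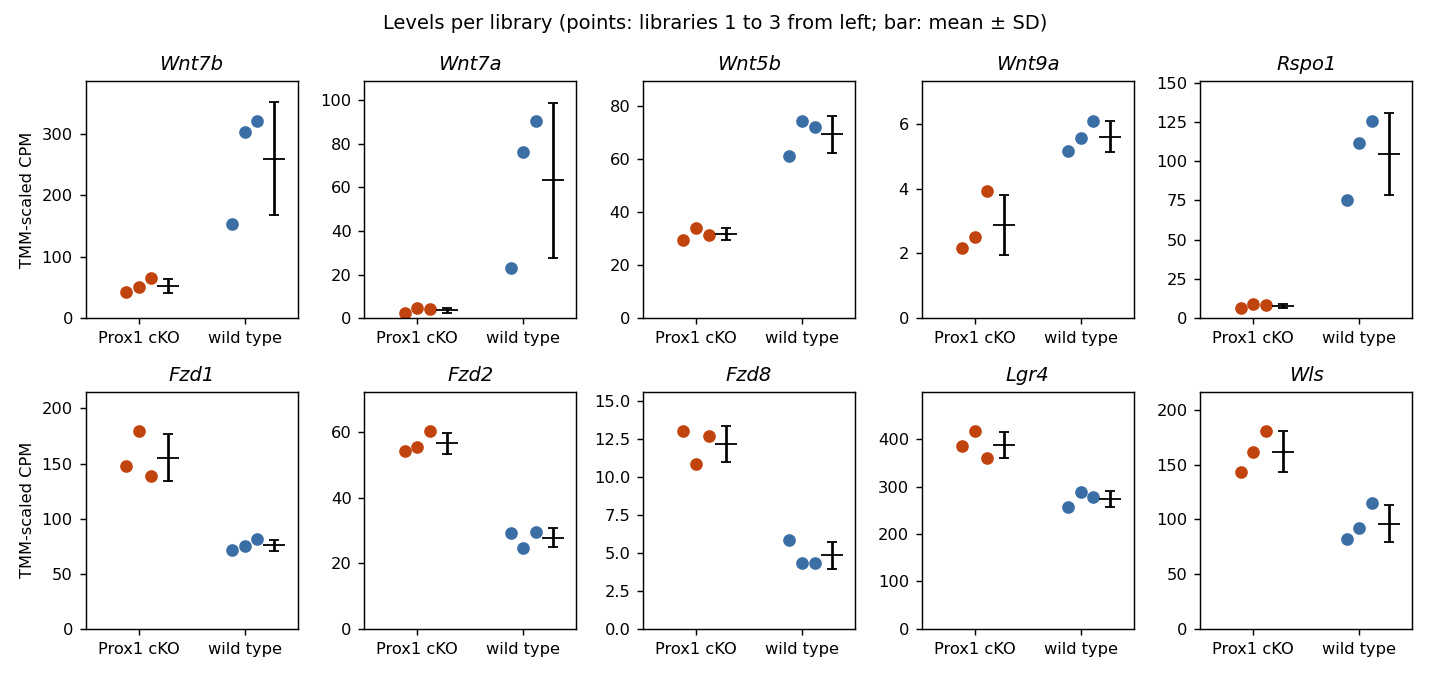
TMM-scaled CPM of 10 Wnt genes in each library (points: libraries 1 to 3; bars: mean ± SD, n = 3 per group), with axes starting at 0 and a scale of its own for each gene. In each panel the Prox1 cKO libraries lie entirely below (Wnt7b, Wnt7a, Wnt5b, Wnt9a, Rspo1) or entirely above (Fzd1, Fzd2, Fzd8, Lgr4, Wls) the wild type libraries.

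Another 4 ligands rose, each at a lower level per kilobase than Wnt7b in both groups. Of the 13 ligands tested, 30.8% passed as higher and 30.8% as lower, against 15.9% and 16.8% of all features tested. Wnt5a, the partner of Ror2 in polarity signalling, had 25.2, 23.5 and 44.0 CPM in Prox1 cKO libraries, against 15.7, 13.51 and 16.7 CPM in wild type libraries (log2 1.00, SE 0.235, edgeR adjusted p = 0.0139), so that it moved against its paralogue Wnt5b. Wnt4, known from kidney and gonad development, had 9.53, 7.10 and 18.1 CPM in Prox1 cKO libraries, against 6.62, 3.15 and 5.76 CPM in wild type libraries (log2 1.14, SE 0.379, edgeR adjusted p = 0.0491). Wnt2, a β-catenin ligand, had 2.20, 1.25 and 4.14 CPM in Prox1 cKO libraries, against 0.869, 0.286 and 0.633 CPM in wild type libraries (log2 2.02, SE 0.520, edgeR adjusted p = 0.0196). Wnt11, which guides cell movements in the gastrula, had 1.18, 1.09 and 3.03 CPM in Prox1 cKO libraries, against 0.241, 0.172 and 0.576 CPM in wild type libraries (log2 2.34, SE 0.582, edgeR adjusted p = 0.0175). Since Wnt11 reached the level needed for testing in no wild type library, it could enter the test only as higher. Wnt2, Wnt5a and Wnt11 did not overlap between the groups, and neither did Wnt4, in all of which Prox1 cKO library 3 was the highest and wild type library 2 the lowest of its group. Wnt2b, Wnt3, Wnt6, Wnt9b and Wnt16 were tested and did not pass, with log2 changes of 0.50 to 2.10 and edgeR adjusted p between 0.0513 and 0.36. Some of these calls depended on single libraries: without wild type library 2, edgeR adjusted p was 0.071 for Wnt5a, 0.167 for Wnt4, 0.0782 for Wnt2, 0.0788 for Wnt11 and 0.0625 for Wnt9a. Wnt2 (0.0619), Wnt4 (0.105) and Wnt9a (0.0665) also lost their calls without wild type library 3, Wnt4 (0.0597) and Wnt9a (0.0512) without Prox1 cKO library 1, Wnt9a without Prox1 cKO library 2 (0.0596), Wnt4 without Prox1 cKO library 3 (0.135), and Wnt4 with limma-voom (0.0594), while the log2 change of Wnt11 was 2.95 without wild type library 3.

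The make-up of the ligand pool differed between the groups. Levels were set on a common footing by dividing CPM by the gene length that the deposited tables imply. Summed over the 19 ligands they came to 37.2, 38.2 and 56.2 CPM per kilobase in Prox1 cKO libraries, against 77.1, 126 and 137 in wild type libraries. Wnt7b took 27.4 ± 1.95% of this sum in the Prox1 cKO and 50.8 ± 4.96% in the wild type, and Wnt7a 2.72 ± 0.937% and 16.4 ± 6.07% (SD, n = 3 each). The share of Wnt5b was 28.2 ± 6.49% in the Prox1 cKO and 24.02 ± 5.33% in the wild type, which overlapped between the groups, since Wnt5b fell along with the sum. Wnt5a made up 8.83 ± 1.09% in the Prox1 cKO and 1.84 ± 0.667% in the wild type, and Wnt2b 9.999 ± 2.19% and 2.08 ± 2.02%. In the Prox1 cKO Wnt7b and Wnt5b stood level, at 11.9 ± 2.48 and 11.9 ± 0.879 CPM per kilobase, while in the wild type they were at 58.8 ± 20.9 and 26.2 ± 2.66. These sums and shares are descriptions and were not tested. The fibre markers, in whose summed level wild type library 1 was also the lowest wild type library, move with Wnt7a and Wnt7b, and their part in these falls was not tested.

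**Figure D3:**
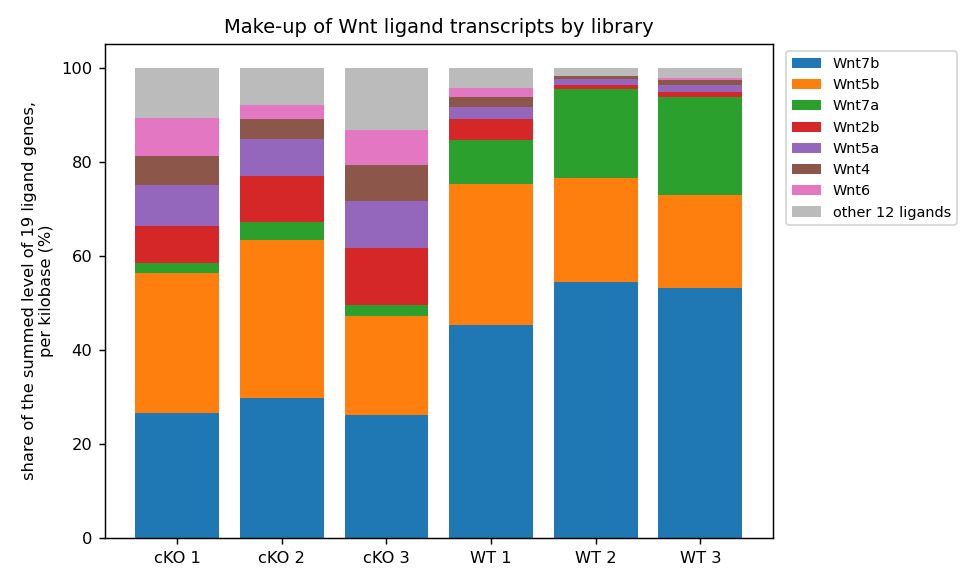
Share of each ligand gene (%) in the summed level per kilobase of the 19 Wnt ligand genes, by library. Wnt7b and Wnt7a fill more of each wild type bar than of any Prox1 cKO bar, and Wnt5a, Wnt2b, Wnt4 and Wnt6 take larger shares in the Prox1 cKO bars.

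Both genes that ligand-producing cells need for secretion rose. Wls encodes the carrier that brings Wnt proteins to the cell surface and had 143, 162 and 180.3 CPM in Prox1 cKO libraries, against 82.0, 91.6 and 115 CPM in wild type libraries (log2 0.75, SE 0.142, edgeR adjusted p = 0.00554). Porcn encodes the acyltransferase that attaches the lipid and had 24.4, 18.5 and 18.5 CPM in Prox1 cKO libraries, against 11.3, 10.6 and 12.6 CPM in wild type libraries (log2 0.84, SE 0.156, edgeR adjusted p = 0.00509). Neither gene overlapped between the groups. Wls was at 49.0 ± 5.64 CPM per kilobase in Prox1 cKO lenses and 29.1 ± 5.06 in wild type lenses (SD, n = 3 each), above the sum of all ligands in Prox1 cKO libraries 1 and 2 and below it in every wild type library.

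Of the 10 Frizzled receptor genes, 6 rose (60%) and none fell among those that passed. Over all features tested, 15.9% passed as higher and 16.8% as lower. Fzd1 had 148, 179 and 139 CPM in Prox1 cKO libraries, against 71.3, 75.4 and 81.3 CPM in wild type libraries, and Fzd2 had 54.1, 55.4 and 60.2 CPM in Prox1 cKO libraries, against 29.2, 24.5 and 29.6 CPM in wild type libraries. In both, the lowest Prox1 cKO library was far above the highest wild type library, with log2 changes of 1.03 for Fzd1 (SE 0.117, edgeR adjusted p = 0.000523) and 1.02 for Fzd2 (SE 0.108, edgeR adjusted p = 0.000392). Fzd8 had 13.0, 10.9 and 12.7 CPM in Prox1 cKO libraries, against 5.84, 4.35 and 4.32 CPM in wild type libraries and the steepest rise of the family (log2 1.33, SE 0.183, edgeR adjusted p = 0.00131). Fzd5, needed for the development of the eye, had 109, 96.0 and 96.9 CPM in Prox1 cKO libraries, against 83.9, 60.8 and 57.22 CPM in wild type libraries (log2 0.58, SE 0.148, edgeR adjusted p = 0.0192). Fzd6, a receptor of the polarity branch, had 42.7, 50.2 and 48.2 CPM in Prox1 cKO libraries, against 35.5, 37.9 and 39.8 CPM in wild type libraries (log2 0.31, SE 0.102, edgeR adjusted p = 0.0451). Fzd9 was near the limit of testing, with 2.73, 1.59 and 2.52 CPM in Prox1 cKO libraries, against 1.304, 1.15 and 0.633 CPM in wild type libraries (log2 1.16, SE 0.354, edgeR adjusted p = 0.037). The groups did not overlap in any of these 6 genes, nor did they in 50.1% of all features tested. Of Fzd5, 17.8% of the exon bases lie opposite another annotated gene, Gm38058, whose reads the unstranded libraries cannot separate.

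The other Frizzled genes did not pass. Fzd3, which guides axons, had a log2 change of -0.56 (edgeR adjusted p = 0.0885), Fzd4 0.82 (0.0652), Fzd7 0.15 (0.274) and Fzd10 0.08 (0.805). Per kilobase the order in the Prox1 cKO began with Fzd1 at 37.3 ± 5.11 CPM, Fzd7 at 21.9 ± 1.18 and Fzd2 at 15.4 ± 0.875. In the wild type Fzd7 at 19.7 ± 1.96, Fzd1 at 18.3 ± 1.204 and Fzd3 at 16.9 ± 2.03 lay within each other's spread at the top. Summed over the family, 116, 134 and 129 CPM per kilobase were found in Prox1 cKO libraries and 93.8, 85.2 and 88.5 in wild type libraries, which do not overlap. Fzd6 was the least secure call, with edgeR adjusted p of 0.149, 0.0897, 0.145, 0.169 and 0.115 without Prox1 cKO library 2 or 3 or wild type library 1, 2 or 3. Fzd5 lost its call without wild type library 2 (0.0872) or 3 (0.0792), and Fzd9 without Prox1 cKO library 1 (0.115) or 3 (0.0732) or wild type library 2 (0.0998) or 3 (0.124). With all libraries, the adjusted p of Fzd6 was also above the threshold with RLE scaling (0.0585), DESeq2 (0.0772), limma-voom (0.0553), no filter beyond 1 count (0.0739) and the replicate number as a block (0.0514), and that of Fzd9 with the block (0.0608).

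Among the 5 other receptor genes, 2 rose (40%, against 15.9% of all features tested). Ror2, the tyrosine kinase receptor for Wnt5a, had 9.82, 14.2 and 16.0 CPM in Prox1 cKO libraries, against 6.18, 2.58 and 4.89 CPM in wild type libraries (log2 1.53, SE 0.318, edgeR adjusted p = 0.00828), with no overlap. The coreceptor Lrp5 had 50.3, 53.1 and 69.9 CPM in Prox1 cKO libraries, against 44.7, 27.0 and 24.6 CPM in wild type libraries (log2 0.84, SE 0.230, edgeR adjusted p = 0.0249), with wild type library 1 close below the lowest Prox1 cKO library. Ryk, an atypical kinase receptor and the most abundant gene of this group per kilobase, had 119.7, 116 and 113 CPM in Prox1 cKO libraries, against 115, 113 and 116 CPM in wild type libraries. Its groups overlapped almost completely (log2 0.02, SE 0.0799, edgeR adjusted p = 0.866). Lrp6, the main coreceptor of the β-catenin branch, had a log2 change of 0.14 (SE 0.125, edgeR adjusted p = 0.395) and Ror1 of 0.31 (SE 0.105, edgeR adjusted p = 0.0533), and neither passed. Lrp5 lost its call without Prox1 cKO library 3 (edgeR adjusted p = 0.0682) and without wild type library 2 (0.104) or 3 (0.0876).

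In the R-spondin axis the ligand fell while a receptor and both of the ligases it opposes rose. Rspo1 had 6.53, 8.77 and 8.47 CPM in Prox1 cKO libraries, against 75.5, 112 and 126 CPM in wild type libraries. That is 13.4-fold lower in the Prox1 cKO (log2 -3.75, SE 0.219, edgeR adjusted p = 5.1e-05), and every Prox1 cKO library was far below every wild type library. Lgr4, an R-spondin receptor, had 385, 416 and 361 CPM in Prox1 cKO libraries, against 257, 289 and 278 CPM in wild type libraries (log2 0.50, SE 0.102, edgeR adjusted p = 0.00785), again without overlap. Znrf3 and Rnf43 encode ubiquitin ligases that remove Frizzled receptors from the membrane and are themselves targets of β-catenin. Znrf3 had 29.0, 36.2 and 43.8 CPM in Prox1 cKO libraries, against 25.2, 26.3 and 25.9 CPM in wild type libraries (log2 0.49, SE 0.150, edgeR adjusted p = 0.0378). Rnf43 had 2.29, 1.67 and 4.74 CPM in Prox1 cKO libraries, against 1.16, 0.344 and 1.09 CPM in wild type libraries (log2 1.69, SE 0.515, edgeR adjusted p = 0.0361). Lgr5, the related receptor that marks stem cells in gut and skin, had a log2 change of 0.62 (SE 0.221, edgeR adjusted p = 0.061) and did not pass. Per kilobase, Rspo1 was at 4.09 ± 0.628 CPM per kilobase in Prox1 cKO lenses and 53.8 ± 13.4 in wild type lenses, and Lgr4 at 65.9 ± 4.73 CPM per kilobase in Prox1 cKO lenses and 46.6 ± 2.82 in wild type lenses (SD, n = 3 each). In the wild type these levels lay within each other's spread, and in the Prox1 cKO Lgr4 was above Rspo1 in all 3 libraries. Without wild type library 3 Lgr4 was at an edgeR adjusted p of 0.0504. Znrf3 lost its call without Prox1 cKO library 2 (0.087) or 3 (0.0882) or wild type library 1 (0.0963), 2 (0.125) or 3 (0.122) and with limma-voom (0.0619), and Rnf43 without Prox1 cKO library 3 (0.093) or wild type library 2 (0.113) or 3 (0.0759).

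The secreted antagonists were the most abundant Wnt genes, and the leading Sfrp gene differed between the groups. Sfrp proteins carry a domain like the ligand-binding part of Frizzled. Sfrp2 had 1357, 1450.5 and 974 CPM in Prox1 cKO libraries, against 497, 337 and 347 CPM in wild type libraries (log2 1.68, SE 0.204, edgeR adjusted p = 0.000732). Sfrp1 had 753, 872 and 875 CPM in Prox1 cKO libraries, against 1564, 2053 and 1952 CPM in wild type libraries (log2 -1.16, SE 0.143, edgeR adjusted p = 0.000799). Neither gene overlapped between the groups. Per kilobase the ratio of Sfrp2 to Sfrp1 was 3.66, 3.38 and 2.26 in Prox1 cKO libraries, against 0.645, 0.333 and 0.361 in wild type libraries, so Sfrp2 led in all 3 Prox1 cKO libraries and Sfrp1 in all 3 wild type libraries. Their sum was 802, 873 and 652 CPM per kilobase in Prox1 cKO libraries and 588, 626 and 607 in wild type libraries, with Prox1 cKO library 3 close above wild type library 2. Of Sfrp2, 16.1% of the exon bases lie opposite Gm26771, and reads of the pair cannot be separated in these unstranded libraries.

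**Figure D4:**
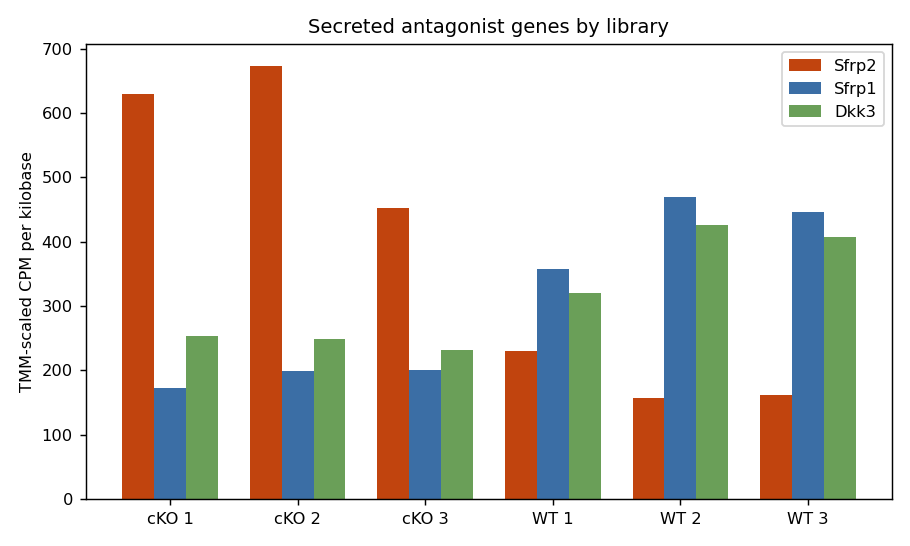
TMM-scaled CPM per kilobase of Sfrp2, Sfrp1 and Dkk3 in each library (1 bar per gene and library). Sfrp2 is the tallest bar in Prox1 cKO libraries 1 to 3 and the lowest of the bars in wild type libraries 1 to 3.

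The other antagonists moved both ways. Dkk3, a divergent member of the Dickkopf family, had 849, 835 and 777 CPM in Prox1 cKO libraries, against 1075, 1427 and 1369 CPM in wild type libraries (log2 -0.65, SE 0.136, edgeR adjusted p = 0.00848), without overlap. Dkk2, which binds Lrp5 and Lrp6, had 62.8, 44.0 and 131 CPM in Prox1 cKO libraries, against 37.1, 11.5 and 32.4 CPM in wild type libraries (log2 1.54, SE 0.477, edgeR adjusted p = 0.0382). Prox1 cKO library 3 held more Dkk2 than the other libraries of its group combined, and the groups did not overlap. Wif1, which binds Wnt ligands directly, had 11.5, 5.76 and 9.68 CPM in Prox1 cKO libraries, against 5.12, 1.95 and 4.38 CPM in wild type libraries (log2 1.24, SE 0.370, edgeR adjusted p = 0.0336). Dkk1, the best known inhibitor of Lrp6, did not pass (log2 0.28, SE 0.236, edgeR adjusted p = 0.388). Summed over the 10 antagonist genes, levels per kilobase overlapped between the groups, at 1083, 1139 and 928 CPM in Prox1 cKO libraries and 925, 1058 and 1029 CPM in wild type libraries. Dkk2 lost its call without Prox1 cKO library 3 (edgeR adjusted p = 0.111) or wild type library 2 (0.102) or 3 (0.0797). Wif1 lost it without Prox1 cKO library 1 (0.0991) or 3 (0.0682) or wild type library 2 (0.0909) or 3 (0.0745).

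Inside the cell, none of the 6 intracellular members and 1 of the 4 TCF/LEF factors passed. These are 0% and 25% of those tested, where 32.6% of all features tested passed. With so few genes, these shares were not read as differing from that of all features. Of the 6 intracellular members, 2 were below an unadjusted p of 0.05 in the edgeR test. Gsk3b, the kinase that marks β-catenin for destruction and the most abundant of the group per kilobase, had 221, 299.8 and 299 CPM in Prox1 cKO libraries, against 230.4, 215 and 218 CPM in wild type libraries (log2 0.30, SE 0.131, edgeR adjusted p = 0.105). Axin2, a scaffold of the destruction complex and the usual readout of β-catenin signalling, had 19.9, 21.5 and 28.9 CPM in Prox1 cKO libraries, against 23.9, 19.01 and 24.6 CPM in wild type libraries. Its groups overlapped (log2 0.05, SE 0.170, edgeR adjusted p = 0.836). The further members were the scaffolds Axin1 (log2 -0.06, edgeR adjusted p = 0.647) and Apc (0.35, 0.117) and the Dishevelled-binding inhibitors Nkd1 (-0.02, 0.888) and Nkd2 (0.64, 0.0892). Of the TCF/LEF factors, through which β-catenin reaches DNA, Tcf7l2 rose, with 40.2, 51.9 and 50.2 CPM in Prox1 cKO libraries, against 27.8, 31.8 and 31.9 CPM in wild type libraries (log2 0.63, SE 0.125, edgeR adjusted p = 0.00671). Tcf7l1, mostly a repressor and the most abundant of the 4 per kilobase, had 45.4, 45.5 and 46.3 CPM in Prox1 cKO libraries, against 42.9, 28.2 and 37.5 CPM in wild type libraries and did not pass (log2 0.33, SE 0.147, edgeR adjusted p = 0.112). Tcf7 (0.06, 0.838) and Lef1 (-0.10, 0.759) did not pass either. Apc, with an SE of 0.159 near that of Axin2, did not pass at a log2 change of 0.35. A change of Axin2 of that size could therefore have been missed with these libraries.

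Of 122 further genes of the pathway, 115 were tested, 35 rose and 15 fell, which is 43.5% of those tested (30.4% higher, 13.0% lower), where 32.6% of all features passed. The β-catenin core counted 10 higher and 4 lower of 32. It included Pygo1, a partner of β-catenin on chromatin, with 79.6 ± 7.40 CPM in Prox1 cKO lenses and 36.8 ± 2.20 CPM in wild type lenses (log2 1.11, edgeR adjusted p = 0.000219), its cofactors Bcl9 (0.72, 0.00604) and Bcl9l (0.83, 0.0198), and the corepressor Tle2 (1.25, 0.037). Modulators at the cell surface and in the matrix counted 11 higher and none lower of 24. Among them were Gpc4, a glypican, with 95.1 ± 4.19 CPM in Prox1 cKO lenses and 39.6 ± 5.85 CPM in wild type lenses (log2 1.26, edgeR adjusted p = 0.000233), Igfbp4 (1.15, 0.0024), Cthrc1 (1.31, 0.00842) and Tpbg (1.12, 0.00124). The polarity branch had 4 higher and 4 lower of 20. That is 20% each way, near the 15.9% higher and 16.8% lower of all features tested. Prickle1 fell by 1.31 (edgeR adjusted p = 0.00591) and the cadherin Celsr1 by 0.79 (0.0205), while Prickle2 rose by 1.52 (0.00989) and Prickle3 by 0.95 (0.0136). The calcium branch had 3 higher and 3 lower of 18, a share of 33.3% that is near that of all features. The kinase gene Prkca had 14.2 ± 4.02 CPM in Prox1 cKO lenses and 85.5 ± 19.1 CPM in wild type lenses (log2 -2.62, edgeR adjusted p = 0.000233), and Camk2a fell by 1.02 (0.00101), while Prkcb rose by 1.42 (0.0024) and the calcineurin subunit Ppp3ca by 0.69 (0.00159).

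Genes known in other tissues as targets of β-catenin went both ways as well, 7 higher and 4 lower of 21 tested. That is 52.4% of those tested, where 32.6% of all features passed. Klf5 reached the level needed for testing in every Prox1 cKO library and in no wild type library, so it could enter the test only as higher. It had 3.17 ± 1.45 CPM in Prox1 cKO lenses and 0.237 ± 0.0947 CPM in wild type lenses (log2 3.67, edgeR adjusted p = 0.0014). Sox9 had 47.8 ± 10.4 CPM in Prox1 cKO lenses and 10.8 ± 0.395 CPM in wild type lenses (log2 2.14, edgeR adjusted p = 0.000127). The adhesion gene Nrcam had 63.1 ± 19.2 CPM in Prox1 cKO lenses and 464 ± 104 CPM in wild type lenses (log2 -2.89, edgeR adjusted p = 0.000181). Id2 had 67.4 ± 7.25 CPM in Prox1 cKO lenses and 264 ± 22.8 CPM in wild type lenses (log2 -1.97, edgeR adjusted p = 5.1e-05). Counted over all 5 lists, 24 of the 115 passed without wild type library 2 and 26 without wild type library 3. Of the genes named here, Bcl9l, Celsr1 and Tle2 lost their calls without wild type library 2 (edgeR adjusted p = 0.0915, 0.0627 and 0.116) or 3 (0.0741, 0.0563 and 0.0792). Prickle3 lost its call without wild type library 2 (0.0615), Tle2 without Prox1 cKO library 1 (0.0981) or 3 (0.0852) and Bcl9l without Prox1 cKO library 2 (0.0544) or 3 (0.0512).

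Some of the genes that rose varied within the groups as markers of surrounding tissue did. Prox1 cKO library 3 was the highest and wild type library 2 the lowest of its group in 8 of the 21 Wnt genes that rose (38.1%), namely Dkk2, Fzd2, Rnf43, Ror2, Wnt2, Wnt4, Wnt5a and Wnt11, and in 29.7% of all 2263 features that rose. Set against the mean of the other 2 libraries, Prox1 cKO library 3 held 3.67 times as much of the periocular mesenchyme list, 2.37 times the pigment cell list and 2.42 times the surface ectoderm list. The same ratio was 2.68 for Wnt11, 2.44 for Dkk2, 2.39 for Wnt2 and 2.39 for Rnf43. It was 0.848 for Fzd1, 1.099 for Fzd2, 1.06 for Fzd8 and 0.694 for Sfrp2. Among wild type libraries the neural retina list varied much as Sfrp2 did. Wild type library 2 held 0.768 times the mean of the other wild type libraries in the list and 0.799 times in Sfrp2. Wild type library 1 held 1.501 times and 1.45 times. For Prox1 cKO library 3 the ratio of the list was 0.765, but the Prox1 cKO libraries were ordered otherwise. The list had 552, 367 and 352 CPM in them, with library 1 the highest. Sfrp2 had 1357, 1450.5 and 974 CPM, with library 2 the highest. The mean of the summed list was 1.53-fold higher in the Prox1 cKO. The part of surrounding tissue or retina in these rises was not tested.

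**Figure D5:**
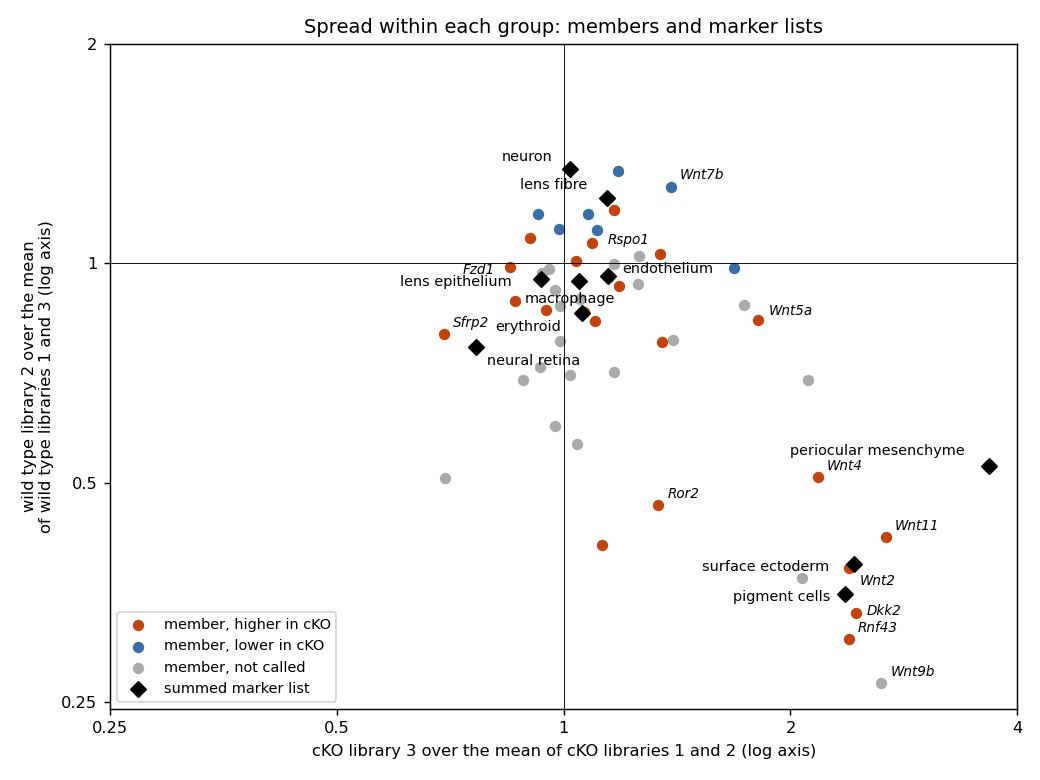
For each tested Wnt gene (circles) and summed marker list (diamonds), the level in Prox1 cKO library 3 over the mean of Prox1 cKO libraries 1 and 2 (x axis) against the level in wild type library 2 over the mean of wild type libraries 1 and 3 (y axis), both on log axes. Wnt11, Wnt2, Dkk2 and Rnf43 lie at the lower right near the surface ectoderm and pigment cell lists, Fzd1 and Rspo1 lie nearer the centre, and Sfrp2 lies near the neural retina list. Wnt6, which had no count in wild type library 2, is not drawn.

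With both of those libraries left out, which leaves 2 against 2, 14 of 52 tested Wnt genes passed, 8 higher and 6 lower. Fzd1 (log2 1.1), Fzd2 (0.90), Fzd8 (1.23), Sfrp2 (1.73), Porcn (0.85), Lgr4 (0.59), Ror2 (1.1) and Wnt5a (0.59) passed as higher. Wnt7a (-4.12), Rspo1 (-3.75), Wnt7b (-2.35), Wnt9a (-1.28), Sfrp1 (-1.11) and Wnt5b (-1.08) passed as lower. The changes of Dkk2 (0.63), Rnf43 (0.84), Wnt4 (0.44), Wnt2 (1.24) and Wnt11 (1.5) were smaller there than with all libraries and did not pass. In these genes Prox1 cKO library 3 was the highest and wild type library 2 the lowest of its group. Leaving those libraries out was bound to make the changes smaller, so the smaller changes say nothing further about these genes. Calls were also lost by Lrp5 (0.57), Wif1 (0.89) and Znrf3 (0.35), and by genes whose change was about as large as with all libraries, namely Wls (0.63, edgeR adjusted p = 0.0663), Tcf7l2 (0.62, 0.0565), Dkk3 (-0.54, 0.095), Fzd5 (0.54, 0.118), Fzd6 (0.30, 0.197) and Fzd9 (1.18, 0.154). Prox1 itself had a log2 change of -0.65 and an edgeR adjusted p of 0.0733 in that comparison. In all 7 Wnt genes that fell, wild type library 1 was the lowest of its group, as it was in 85.9% of all 2396 features that fell.

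Low counts kept 13 of the 64 genes out of the test. Wnt10a was the most abundant of them, with 55, 5 and 24 counts in Prox1 cKO libraries and 10, 1 and 7 counts in wild type libraries. Wnt3a had 11, 9 and 16 counts in Prox1 cKO libraries, against 3, 0 and 1 in wild type libraries. For Wnt10a that is 0.417 to 2.42 CPM in the Prox1 cKO and at most 0.483 CPM in the wild type, and the groups overlap. For Wnt3a it is 0.323 to 1.61 CPM in the Prox1 cKO, and every wild type library was lower. Between 7 and 47 counts over all 6 libraries were found for Rspo2, Rspo3, Rspo4, Sfrp4, Sfrp5, Dkkl1 and Wnt8b. Wnt1, Wnt8a, Wnt10b and Dkk4 had 1 to 4 counts in all. A count of 0 in a library allows a level of up to 3 counts, which is 0.106 to 0.33 CPM before TMM scaling. A transcript below that level could go uncounted at this depth. Such limits cover counting error only.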

How the data were processed

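Poly(A) RNA of 3 Prox1 cKO and 3 wild type pools was read as single 51 bp reads without strand. Per the labels, each pool held 30 lenses. The deposited tables give raw counts per feature, whole numbers as the file headers name them. The deposited CPM made by the authors is the count scaled by the library total, within 1e-06 CPM. The deposited RPKM is that CPM divided by 1 length per feature. Build GRCm38 and edgeR are named in the submitters' processing notes, and no source used here names the aligner or the annotation.

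Left out were 26 features whose count and CPM disagreed, with 0.0424% to 0.0636% of a library's counts. Of all 41128 features listed, 19852 had no count.

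Counts were tested with the edgeR 4.0.16 quasi-likelihood test in R 4.3.3 (filterByExpr with a minimum count of 10, TMM, groups as the only term). P-values were adjusted by the Benjamini-Hochberg method across the 14271 tested features, 0.05 was the threshold, and log2 changes are Prox1 cKO minus wild type. The test was first run on simulated counts, which did not carry the differences between single pools seen here. No support for the calls is drawn from that run. Levels per kilobase divide TMM-scaled CPM by the length implied by the deposited CPM and RPKM. Overlaps of exons came from GENCODE and promoter sequences from RefSeq.

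The Wnt genes, the pathway lists and the marker lists were chosen with earlier results of these data known. Values in every library are given for Prox1, each gene that passed, Sfrp1, Fzd1, Fzd2 and the gene of highest mean deposited RPKM in each role, and of each further pathway list up to 4 passing genes of largest change are named. The fibre marker Lim2, listed only under numbered names, was not used. Alternatives were other scalings (RLE, upper quartile, crystallins removed), DESeq2 1.42.0, limma-voom (limma 3.58.1), other filters, a term for the replicate number and each library left out in turn. A comparison without Prox1 cKO library 3 and wild type library 2 was added after seeing the data.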

Additional observations from a re-analysis of the deposited data

How the results depend on the processing

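Of the 28 Wnt genes that passed, 11 did so under each of 15 alternatives that tested them: Fzd1, Fzd2, Fzd8, Porcn, Ror2 and Sfrp2 as higher and Rspo1, Sfrp1, Wnt5b, Wnt7a and Wnt7b as lower. The other 17 lost the call under at least 1, and 11 of the 23 that had not passed gained one under at least 1. Over scalings, tests and filters, between 27 (RLE scaling, limma-voom) and 36 (no filter beyond 1 count, 64 genes tested) Wnt genes passed. Without crystallin counts it was 28 and with DESeq2 32. With 1 library left out, the counts ran from 15 to 34 for the Wnt genes, from 24 to 55 for the further pathway genes and from 2267 to 5317 for all features, lowest without wild type library 2 and highest without wild type library 1. Fewer samples enter these fits. Without Prox1 cKO library 3 and wild type library 2, 14 Wnt genes, 24 further pathway genes and 1810 features passed.

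Log2 changes near 0, none of which passed, turned their sign in 17 cases, and the cause was not tested. They were those of Axin2 with limma-voom (-0.0034) and of Nkd1 with upper quartile scaling (0.0253). With 1 library left out, the ranges were -0.12 to 0.16 for Axin2, -0.08 to 0.33 for Fzd10, -0.33 to 0.11 for Lef1, -0.112 to 0.0331 for Nkd1, -0.0214 to 0.0428 for Ryk and -0.0683 to 0.15 for Tcf7. Without Prox1 cKO library 3 and wild type library 2 they were -0.23 for Axin2, -0.14 for Fzd10 and -0.04 for Tcf7.

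Libraries with the same replicate number deviated together with correlations of -0.03, 0.25 and 0.11 across genes, so the numbers were not taken to pair the libraries. With a replicate block 29 Wnt genes, 46 further pathway genes and 4176 features passed. Prox1 cKO libraries 2 and 3 correlated best with the wild type library of their own number, and library 1 did not. Depth limits the genes near the filter, Fzd9, Wnt2, Wnt11 and Rnf43, which had under 5 CPM in every library.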
